A study of Marmota monax with 203 samples.

Results

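The enzymes, transporter and regulators by which the liver makes, releases and breaks down glucose were followed in liver biopsies of woodchucks that carry woodchuck hepatitis virus (WHV). The genes described were chosen by name, 9 of the 17587 genes that the files list: PCK1, PCK2, G6PC, FBP1 and PC of gluconeogenesis, SLC2A2 of glucose transport, and GCKR, PFKFB1 and PKLR of glycolysis and its control. All animals, treated and placebo, were chronic carriers of WHV, a relative of hepatitis B virus, infected as newborns (day 3 of life) with an inoculum named cWHV7P2a, and were adults of about 1 year. The treated animals received woodchuck interferon-α (wIFN-α) and the control animals a placebo, under the skin 3 times a week, and the biopsies on treatment were taken 6 h after a dose. The wIFN-α dose was 20 μg at weeks 0 and 3 and 100 μg at weeks 7, 11 and 15. Biopsies at week -3 preceded treatment, and those at weeks 19 and 23 followed it. At weeks -3, 0, 3, 7, 11, 15, 19 and 23 there were 11, 11, 9, 9, 8, 8, 6 and 6 wIFN-α biopsies and 12, 12, 12, 12, 10, 9, 5 and 9 placebo biopsies, each of another animal. Animals of both sexes are in every group and are named below by a letter for the sex and a number.

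Gluconeogenesis builds glucose from lactate, amino acids and glycerol and keeps up blood glucose in fasting. Pyruvate carboxylase (PC) makes oxaloacetate, the phosphoenolpyruvate carboxykinases PCK1 (cytosolic) and PCK2 (mitochondrial) turn it into phosphoenolpyruvate, fructose-1,6-bisphosphatase (FBP1) works further up the path, and the catalytic subunit of glucose-6-phosphatase (G6PC) releases free glucose, which crosses the hepatocyte membrane by the transporter SLC2A2 (GLUT2). In the other direction, GCKR encodes the protein that holds glucokinase inactive in the hepatocyte nucleus, PFKFB1 the liver form of the enzyme that makes and breaks down fructose 2,6-bisphosphate, and PKLR the pyruvate kinase of liver and red blood cells. Glucagon and fasting raise PCK1 and G6PC transcription, whereas insulin and feeding lower it and favour glycolysis.

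Poly(A) RNA was sequenced from the biopsies, and the 149 biopsies compared here held 12072840 to 84805845 reads on genes, with a median of 28754894. Levels are given as CPM, counts scaled to the library's size, after a normalization over all biopsies. Some libraries went against their labels or stood apart. The biopsies labelled week -3 of F1018 (wIFN-α) and F1016 (placebo) had 0.0231% and 0.0349% of reads on 12 hepatocyte markers against a median of 9.96%, and together with F1023 at week 0 (wIFN-α), F1021 and M1011 at week 3 (both placebo) they had over 5% of reads on 20 skeletal muscle genes. These 5 biopsies are called muscle-rich here. F1013 at week 3 (wIFN-α) had 899.9 CPM summed over 10 type I interferon-stimulated genes (ISGs), within the 452.7 to 998.1 CPM of the placebo animals, whereas the next lowest treated animal had 11090 CPM. In the 2 biopsies almost without hepatocyte reads the members stood apart, in directions that differed between genes. SLC2A2 was at 1.02 CPM in F1018 and 2.63 CPM in F1016, while PKLR was at 930.6 and 923.4 CPM, the highest values of that gene in the study.

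Per length of transcript, in the length-scaled RPKM values that the authors deposited, PCK1 was the most abundant of the 9 genes in placebo livers. Over the 78 placebo biopsies that were not muscle-rich its median was 240.6 RPKM (range 43.8 to 946.7). FBP1 (167.1), PCK2 (162.0), G6PC (138.3) and SLC2A2 (110.6) followed. PKLR (60.4), GCKR (60.04), PC (57.3) and PFKFB1 (53.6) lay close together. SLC2A2 was above PKLR in 75 of the 78 biopsies, and PCK1 above FBP1 in 58. FBP1 and PCK2 were not separated, with FBP1 higher in 44 of 78, nor were PKLR from GCKR (41), GCKR from PC (45) or PC from PFKFB1 (39).

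**Figure D1:**
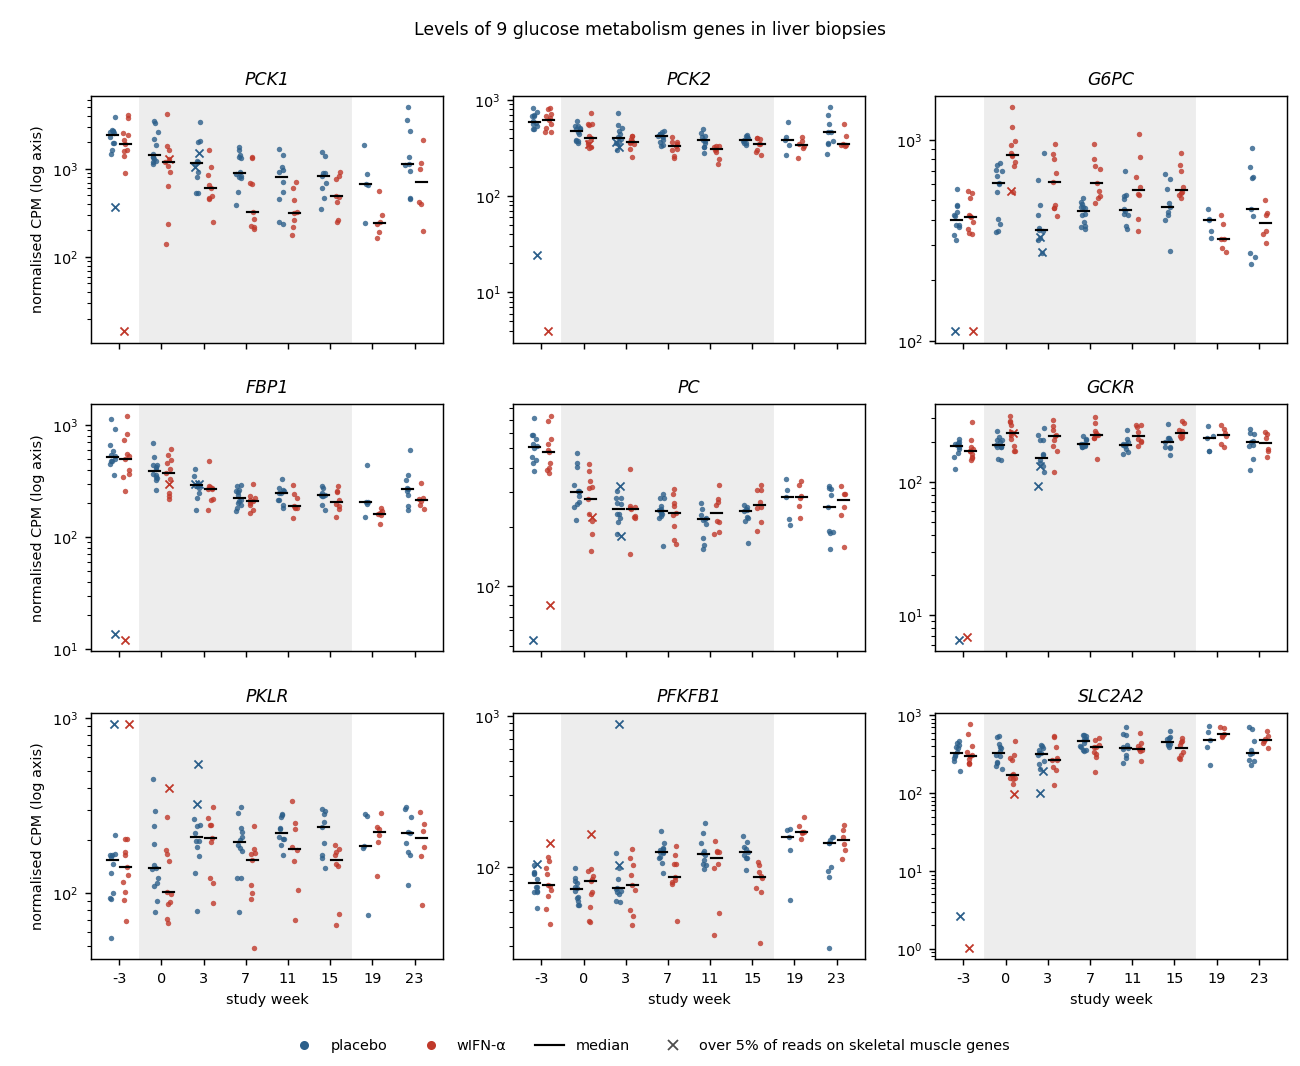
Levels of the 9 genes in each biopsy, as normalised CPM on a log axis against study week, with placebo animals in blue, wIFN-α animals in red and the median of each group as a line; the shaded weeks are those of treatment, and crosses mark biopsies with over 5% of reads on skeletal muscle genes. G6PC of the treated animals lies above placebo at weeks 0 to 7, SLC2A2 lies below it at week 0, and PCK1 lies below placebo at week 11, where all 8 treated animals are under the placebo median.

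The comparison of treated with time-matched placebo animals asks how wIFN-α changed liver expression at each week. A gene was called where edgeR's quasi-likelihood test gave a Benjamini-Hochberg adjusted p under 0.05 over all genes and the fold change exceeded 1.5. At week 0, 6 h after the first low dose, G6PC rose and SLC2A2 fell, 1 of 9 genes in each direction, where 10.3% of all genes were called higher and 8.15% lower. No member was called at week 3, where 10.8% of genes were, nor at week 7, where 11.4% were higher and 10.1% lower. At week 11 PCK1 fell, 1 of 9 genes against 7.98% of all genes lower and 12.6% higher. At week 15 PKLR and PFKFB1 fell, 2 of 9 against 8.83% lower and 13.4% higher. With only 9 genes, these counts do not show whether the members were called more or less often than genes at large. In bulk biopsies fewer cells of a type and less RNA per cell cannot be told apart.

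Before treatment at week -3 no member was called, and 0% of all genes were. After treatment at weeks 19 and 23 no member was called either, and again 0% of all genes were at each of these weeks. At an unadjusted p under 0.05 edgeR had 130, 1859 and 2416 genes and 0, 2 and 0 members at weeks -3, 19 and 23. DESeq2 called 0, 87 and 35 genes there, with 1 member (PCK1 at week 19), and limma-voom 0, 0 and 0. At weeks 3 and 7, where edgeR called none, 3 and 6 members had an unadjusted p under 0.05. DESeq2 called PCK1 at each of these weeks, and limma-voom called 2 at week 3 and 1 at week 7. The median log2 fold change of the 9 genes was -0.13, -0.10, -0.31, -0.25 and -0.16 at weeks 0, 3, 7, 11 and 15, beside -0.01, -0.04, -0.03, -0.03 and -0.01 for all genes tested.

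**Figure D2:**
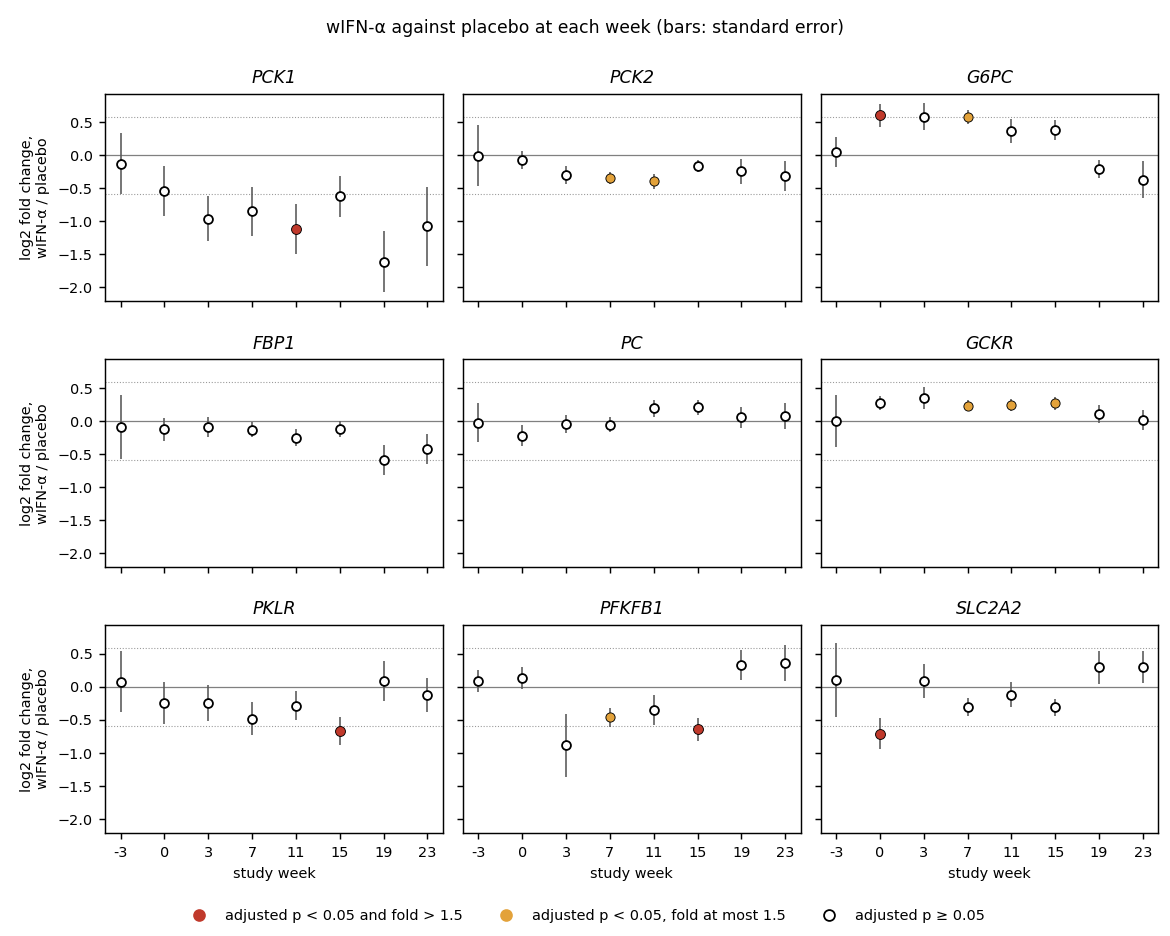
Log2 fold change of wIFN-α against placebo for each of the 9 genes at each study week, with bars of 1 standard error and dotted lines at a fold change of 1.5; red points passed the adjusted p and the fold, orange points the adjusted p only, and open points neither. PCK1 lies below 0 at all 8 weeks and G6PC above 0 at weeks 0 to 15 and below it at weeks 19 and 23.

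G6PC, which encodes the enzyme of the last step, was the member that rose under treatment. At week 0 its lowest, median and highest values were 553.2, 839.0 and 1455 CPM in 11 treated animals and 346.6, 608.4 and 768.0 CPM in 12 placebo animals. Above every placebo animal were 8 of the 11 treated animals, so the groups overlapped in part. The difference on the log2 scale was 0.60 (SE 0.17, adjusted p = 0.00815). Without F1013 it was 0.56 and without M1003 it was 0.51, both under the fold of 1.5 with adjusted p of 0.0170 and 0.0192.

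At week 7, after the first high dose, G6PC ranged from 484.8 to 954.0 CPM (median 610.2) in 9 treated animals and from 359.5 to 513.5 CPM (median 443.2) in 12 placebo animals. All 9 treated animals were above the placebo median and 7 above every placebo animal. This difference of 0.58 (SE 0.11, adjusted p = 0.000164) passed the adjusted p and lay just inside the fold limit, at 1.496-fold, and was called without M1003, M1007, M1012, F1014 or F1018. At week 3 the log2 fold change was also 0.58 (SE 0.21, adjusted p = 0.0506), with all 9 treated animals above the placebo median. There it was 0.64 (adjusted p = 0.0330) without F1013, the animal without an ISG response, and 0.51 (adjusted p = 0.105) without the muscle-rich biopsies. It was called at week 3 with the lane (0.87, adjusted p = 0.0159) or sex (0.60, adjusted p = 0.0421) as a covariate. By limma-voom it was called too (0.62, adjusted p = 0.0369), but not by DESeq2. At weeks 11 and 15 the values were 0.37 (SE 0.19, adjusted p = 0.125) and 0.38 (SE 0.16, adjusted p = 0.0593), and at week 15 all 8 treated animals were again above the placebo median. After treatment the difference was -0.21 at week 19 and -0.37 at week 23, neither past the test.

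PCK1, which encodes the enzyme long taken as the pace-setter of gluconeogenesis, was lower in the treated group at each week of treatment but varied widely among animals. At week 11 the lowest, median and highest values were 178.8, 319.6 and 712.0 CPM in 8 treated animals and 238.7, 813.4 and 1692 CPM in 10 placebo animals. All 8 treated animals lay below the placebo median, but only 2 of them below every placebo animal. The log2 fold change of -1.12 (SE 0.38, adjusted p = 0.0256) corresponds to 45.9% of the placebo level. It was called in each of the 8 fits that left out 1 treated animal, from -1.31 to -1.02. With the sequencing lane as a covariate it was -1.04 with an adjusted p of 0.0772.

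At the other weeks the PCK1 difference did not pass the test. It was -0.55 (SE 0.38, adjusted p = 0.289) at week 0, where single treated animals lay between 139.2 and 4222 CPM and 5 of 11 were below every placebo animal. F1018 had the highest of these values, and without it the difference was -0.91 and was called (adjusted p = 0.0448). At week 3 it was -0.96 (SE 0.34), with an adjusted p of 0.05002, just above the threshold, and at week 7 it was -0.85 (SE 0.37, adjusted p = 0.0620). At week 7 it was called without M1007 (-1.11) and without F1022 (-1.09). It was -0.62 (SE 0.31, adjusted p = 0.118) at week 15.

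The difference in PCK1 was largest after treatment, at week 19, where it rested on small groups. The 6 treated animals ranged from 164.0 to 560.0 CPM with a median of 244.7. The 5 placebo animals had 240.2 CPM (M1011), 648.6 CPM (M1005), 675.8 CPM (F1016), 880.4 CPM (F1019) and 1885 CPM (M1008). All 6 treated animals were below the placebo median and 3 below every placebo animal. The log2 fold change was -1.61 (SE 0.46) with an adjusted p of 0.297. M1008 stood apart from the other placebo animals at that week for several members, and without it the value was -1.11 (SE 0.39). At week 23 the difference was -1.08 (SE 0.60, adjusted p = 0.360).

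PCK2, the mitochondrial counterpart, differed less, and with less spread. At week 7 it was at 249.6, 334.3 and 407.1 CPM (lowest, median, highest) in treated and at 334.2, 421.3 and 472.2 CPM in placebo animals. All 9 treated animals were below the placebo median and 4 below every placebo animal. The log2 fold change of -0.35 (SE 0.09, adjusted p = 0.00248) passed the adjusted p, at 78.7% of placebo, but not the fold. Week 11 gave -0.39 (SE 0.12, adjusted p = 0.0112), with 8 of 8 treated animals below the placebo median. At weeks 0, 3 and 15 the differences were -0.07, -0.30 and -0.16, none past the adjusted p.

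FBP1 and PC showed no difference past the adjusted p at any week. For FBP1 the log2 fold changes lay between -0.25 and -0.10 at weeks 0 to 15 with SE of 0.11 to 0.18. Its value of -0.59 (SE 0.23, adjusted p = 0.364) at week 19 came to -0.25 (SE 0.12) without M1008, whose 444.5 CPM compares with 151.7 CPM (M1011), 198.6 CPM (F1016), 205.7 CPM (F1019) and 206.6 CPM (M1005). For PC the log2 fold changes were -0.22 (SE 0.16) at week 0 and 0.21 (SE 0.11, adjusted p = 0.143) at week 15, where 4 of 8 treated animals were above every placebo animal.

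SLC2A2, the transporter by which glucose enters and leaves hepatocytes, fell at week 0. The lowest, median and highest values were 97.4, 173.3 and 461.9 CPM in 11 treated animals and 205.8, 329.2 and 541.2 CPM in 12 placebo animals. Of the 11 treated animals 10 were below the placebo median and 7 below every placebo animal. Treated animals differed by -0.71 (SE 0.23, adjusted p = 0.0192), or 61.3% of the placebo level. It was -0.63 (adjusted p = 0.0282) without the muscle-rich biopsy of F1023, which held the lowest value, and -0.75 (adjusted p = 0.0107) with the lane as a covariate. In 1 fit of all weeks the value was -0.70 and its adjusted p was 0.0519. None of the 12 hepatocyte markers was called in either direction at week 0. They summed to between 72300 and 152900 CPM in treated and between 77270 and 146600 CPM in placebo animals. As a share of reads they averaged 10.24% in treated and 11.4% in placebo animals. Their part in the SLC2A2 difference was not tested.

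At later weeks SLC2A2 did not pass the test. At week 3, still on the low dose, the difference was 0.08 (SE 0.26), and -0.05 without the muscle-rich biopsies. There 6 of 9 treated animals were below the placebo median and 2 above every placebo animal. Among these 2 was F1013 (529.9 CPM), the animal without an ISG response at that week. At weeks 7, 11 and 15 it was -0.31, -0.12 and -0.31 with adjusted p of 0.0802, 0.672 and 0.0713, and 4 of 9, 0 of 8 and 4 of 8 treated animals were below every placebo animal. At weeks 19 and 23 all 6 treated animals lay above the placebo median, with differences of 0.30 (SE 0.24) and 0.30 (SE 0.24) that did not pass the test.

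GCKR, the inhibitor of glucokinase, was slightly higher under treatment, by close to the same amount at each week. The log2 fold change was 0.27 (SE 0.11, adjusted p = 0.0554) at week 0 and 0.35 (SE 0.17, adjusted p = 0.157) at week 3. It passed the adjusted p but not the fold at weeks 7, 11 and 15, with 0.24 (SE 0.09, adjusted p = 0.0269), 0.24 (SE 0.09, adjusted p = 0.0446) and 0.27 (SE 0.10, adjusted p = 0.0322). At week 15 the 8 treated animals lay between 214.1 and 287.2 CPM (median 233.1) and the 9 placebo animals between 158.2 and 268.7 CPM (median 198.9). All 8 were above the placebo median, though only 2 were above every placebo animal. At weeks 19 and 23 the differences were 0.11 and 0.01.

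PFKFB1, whose enzyme sets the level of fructose 2,6-bisphosphate, fell at the end of treatment. At week 15 it was at 31.4, 85.7 and 108.2 CPM (lowest, median, highest) in 8 treated animals and at 95.0, 124.6 and 161.0 CPM in 9 placebo animals. Of the 8 treated animals 6 were below every placebo animal and all 8 below the placebo median. The fitted difference was -0.64 (SE 0.18, adjusted p = 0.00736), or 64.0% of placebo. Without F1020, the lowest treated animal, it was -0.52 with an adjusted p of 0.00157, under the fold of 1.5, and in 1 fit of all weeks its adjusted p was 0.0605.

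At week 7 the PFKFB1 difference was -0.46 (SE 0.15, adjusted p = 0.0133), again under the fold, with 5 of 9 treated animals below every placebo animal. At week 11 it was -0.35 (SE 0.23, adjusted p = 0.236). The value at week 3, -0.89 (SE 0.48, adjusted p = 0.203), rested on 1 placebo biopsy. The muscle-rich biopsy of F1021 held 883.2 CPM, the highest other placebo value was 124.2 CPM, and without the muscle-rich biopsies the difference was 0.04 (SE 0.20). The other muscle-rich biopsies, over all weeks, held 102.7 (M1011), 104.5 (F1016), 144.7 (F1018) and 166.1 CPM (F1023). F1016 and F1018 had the highest values of their groups at week -3, and F1023 that of its group at week 0. F1016 and F1018 almost lacked hepatocyte reads at week -3, so PFKFB1 counts do not come from hepatocytes alone. The part of other tissue in the PFKFB1 differences was not tested. What set F1021 apart was not tested. PFKFB1 overlaps its neighbour TRO in the RefSeq woodchuck annotation, the libraries do not mark strand, and the counts of TRO were 0.169 to 0.940 of those of PFKFB1 (median 0.775), so reads of these genes cannot be told apart where they overlap.

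PKLR, the last enzyme of glycolysis in liver, fell at week 15 as well. Its lowest, median and highest values were 65.9, 155.4 and 188.3 CPM in treated and 139.7, 240.5 and 302.6 CPM in placebo animals. All 8 treated animals were below the placebo median, and 2 were below every placebo animal. The log2 fold change was -0.67 (SE 0.22, adjusted p = 0.0207), or 63.0% of placebo. PKLR was highest in the biopsies almost without hepatocyte reads, at 923.4 CPM (F1016) and 930.6 CPM (F1018), so its counts do not come from hepatocytes alone. The part of other tissue in the week 15 difference was not tested. It fell under the fold of 1.5 without F1020 (-0.56, adjusted p = 0.0321) or F1022 (-0.57, adjusted p = 0.0372), and in 1 fit of all weeks its adjusted p was 0.124. At weeks 0, 3, 7 and 11 the differences were -0.25, -0.24, -0.48 and -0.28 with SE of 0.22 to 0.32 and none passed the adjusted p, and at week 19 the difference was 0.09. Without the muscle-rich biopsies PKLR was at -0.49 (SE 0.30, adjusted p = 0.213) at week 0 and at 0.03 (SE 0.24) at week 3, so that its direction at week 3 turned. Without F1013 the value at week 7 was -0.62 and was called (adjusted p = 0.0422).

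Markers of other cells moved at the same weeks. At week 11 all 10 proliferation genes and 4 of 8 T cell markers were called higher, and at week 15 all 10 proliferation genes, 6 of 8 T cell markers, 3 of 7 B and plasma cell markers and 4 of 10 myeloid markers (with 1 lower). At week 15 the summed T cell markers ranged from 110.9 to 231.2 CPM in treated and from 43.6 to 85.2 CPM in placebo animals, and the summed myeloid markers from 541.8 to 1271 CPM and from 366.2 to 649.9 CPM. No hepatocyte marker was called lower at any week, and 2 of 12 were called higher at weeks 7 and 15. The 10 ISGs were called higher at every week of treatment. The part of these cells in the lower PCK1, PFKFB1 and PKLR was not tested.

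The sequencing lane, which the sample titles give as a number, was a possible batch. Some biopsies share both a lane number and a barcode, so a lane number covers several physical lanes. The labels do not tell these apart, so the comparisons by lane number below are not comparisons within a physical lane. Over the biopsies of weeks 0 to 15, each centred on the placebo mean of its week, the difference of treated from placebo animals was taken within each of 7 lane numbers. The same animals recur across lane numbers, so these differences are not independent of each other. The share of all genes with 1 direction in all 7 was not counted. PCK1 lay below 0 in 7 of 7 lanes, from -1.79 to -0.32 on the log2 scale, and PFKFB1 in 7 of 7, from -0.59 to -0.07. The PFKFB1 values include F1021 at week 3 (883.2 CPM, lane 3), which raised the placebo means of that week and of lane 3, where the lowest value lay. G6PC lay above 0 in 7 of 7 lanes, from 0.34 to 0.76, and GCKR in 7 of 7, from 0.04 to 0.45. PCK2, PKLR and SLC2A2 lay below 0 in 6 of 7 lanes each. FBP1 was below 0 in 4 and PC in 3. With the lane as a covariate in the weekly fits the size of the PCK1 difference moved in both directions, to -0.93 (adjusted p = 0.0975) at week 0, -0.51 (adjusted p = 0.392) at week 3, -1.07 (adjusted p = 0.0224, called) at week 7 and -0.21 (adjusted p = 0.686) at week 15. At week 3 it also turned FBP1 to 0.24 and PC to 0.25 and took PCK2 to -0.15, none past the test, while G6PC came to 0.87 (adjusted p = 0.0159) and was called.

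Whether the effect differed between doses was asked by setting the effect at week 15 against the mean effect at weeks 0 and 3. The high dose always followed the low dose, so dose and time on treatment cannot be told apart here. No member passed an adjusted p of 0.05, where 2.26% of all genes did. The member differences ran from -0.44 (PKLR, SE 0.41) to 0.32 (PC, SE 0.23, adjusted p = 0.595), so that for PKLR and PFKFB1 a fall particular to the high dose was not shown. PFKFB1 gave -0.30 (SE 0.33, adjusted p = 0.780), and -0.56 (SE 0.29, adjusted p = 0.278) by limma-voom with the animal as a replicate block. For this gene the comparison is weak, because the mean it was set against holds the week 3 effect that rested on the placebo biopsy of F1021. PCK1 differed by 0.11 (SE 0.53). By edgeR 2315 genes had an unadjusted p under 0.05, none of them a member, and limma-voom called 339 genes and no member.

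Between the first dose and week 3 at the same dose, no member passed either, where 2.4% of all genes did. The effect of SLC2A2, called at week 0 and not at week 3, changed by 0.79 (SE 0.42, adjusted p = 0.352), so a change between these weeks was not shown. PFKFB1 gave -0.99 (SE 0.36, adjusted p = 0.124), the difference that rested on the placebo biopsy of F1021 at week 3. It alone of the members had an unadjusted p under 0.05, as 2571 genes did, and limma-voom called 40 genes and no member.

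Within the placebo group the time course asked what changed without wIFN-α. Expression differed between the 8 weeks for 68% of all genes (edgeR's quasi-likelihood test, adjusted p under 0.05) and for 4 of the 9 members, namely PC (adjusted p = 2.74e-08), FBP1 (1.70e-06), PCK1 (0.000344) and PFKFB1 (0.00322). G6PC (0.0852), SLC2A2 (0.0943), PCK2 (0.0991), GCKR (0.596) and PKLR (0.873) did not pass. Without the week -3 biopsy of F1016, which almost lacked hepatocyte reads, PCK2 (3.02e-05) and SLC2A2 (0.00481) passed as well, and PKLR came to 0.0533.

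**Figure D3:**
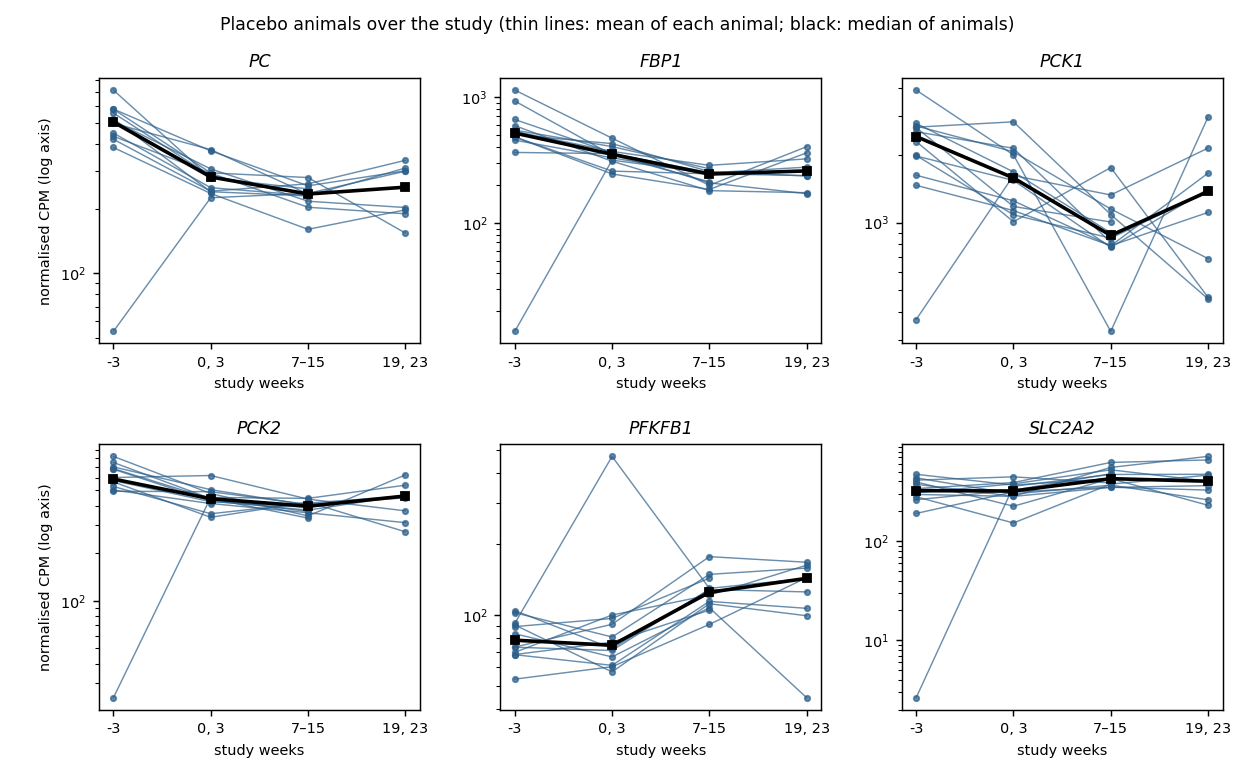
Levels of 6 members in the placebo group over 4 phases of the study, as the mean normalised CPM of each animal on a log axis (thin lines) and the median of the animals (black). PC and FBP1 fall from week -3 to weeks 0 and 3 and PCK1 falls by weeks 7 to 15, when the medians of PFKFB1 and SLC2A2 are at 125.0 and 427.2 CPM against 74.5 and 320.7 CPM before; the single low point at week -3 is F1016, and the high point of PFKFB1 is F1021.

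From week -3 to weeks 0 and 3, PC and FBP1 fell, 2 of 9 members against 4.29% of all genes called lower. For PC the median of 12 placebo animals went from 507.6 to 281.3 CPM, a log2 change of -0.76 (SE 0.14, adjusted p = 2.04e-05), and 11 of 12 animals were lower. For FBP1 it went from 516.0 to 350.1 CPM, a change of -0.70 (SE 0.19, adjusted p = 0.00463), with 11 of 12 animals lower. The animal that went the other way was F1016 for both genes. Without its week -3 biopsy the changes were -0.87 for PC and -0.82 for FBP1, and PCK2 (-0.48, adjusted p = 0.000460) and PKLR (0.58, adjusted p = 0.0277) passed the adjusted p, under the fold. Without F1019 at all weeks the FBP1 change was -0.58, under the fold. The summed hepatocyte markers of placebo animals had a median of 153000 CPM at week -3 and 106500 CPM at week 0, with 1 of 12 markers called lower and 2 higher, and their part in these falls was not tested.

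From weeks 0 and 3 to weeks 7, 11 and 15, PCK1 was the member called lower, 1 of 9 against 8.14% of all genes. Its median went from 1582 to 876.0 CPM, a log2 change of -0.81 (SE 0.22, adjusted p = 0.00186), and 11 of 12 animals were lower. FBP1 was lower in all 12 animals, by -0.52 (SE 0.15, adjusted p = 0.00298), and PC by -0.30 (SE 0.11, adjusted p = 0.0193), both under the fold. SLC2A2 was higher in 11 of 12 animals, by 0.51 (SE 0.18, adjusted p = 0.0141), also under the fold.

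PFKFB1 went from a median of 74.5 to 125.0 CPM over the same span and was higher in 11 of 12 placebo animals, the exception being F1021. The log2 change was 0.34 (SE 0.17, adjusted p = 0.104) with every biopsy. Without the muscle-rich biopsies it was 0.79 (SE 0.10, adjusted p = 6.05e-09) and was called. GCKR, G6PC and PKLR changed by 0.15, -0.06 and 0.10, none past the test.

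From weeks 7 to 15 to weeks 19 and 23 no member was called, where 10.8% of all genes were. The largest change was that of PCK1, 0.47 (SE 0.26, adjusted p = 0.155), higher in 6 of 9 animals. PFKFB1 stayed at its later level, with a change of 0.00 (SE 0.21). None of the 9 members had an unadjusted p under 0.05.

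Members differed in how far they varied among placebo animals. Without the muscle-rich biopsies the spread about the week means was largest for PCK1 (SD of 0.77 on the log2 scale) and PKLR (0.52) and smallest for GCKR (0.23). Of that spread, 52.4% lay between animals for PKLR, 36.6% for PFKFB1, 33.4% for SLC2A2 and 31.0% for PC. For PCK1 and G6PC 0% did, so that repeated biopsies of 1 animal were no more alike than those of different animals. PCK2 (10.98%), GCKR (9.53%) and FBP1 (5.88%) lay between.

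**Figure D4:**
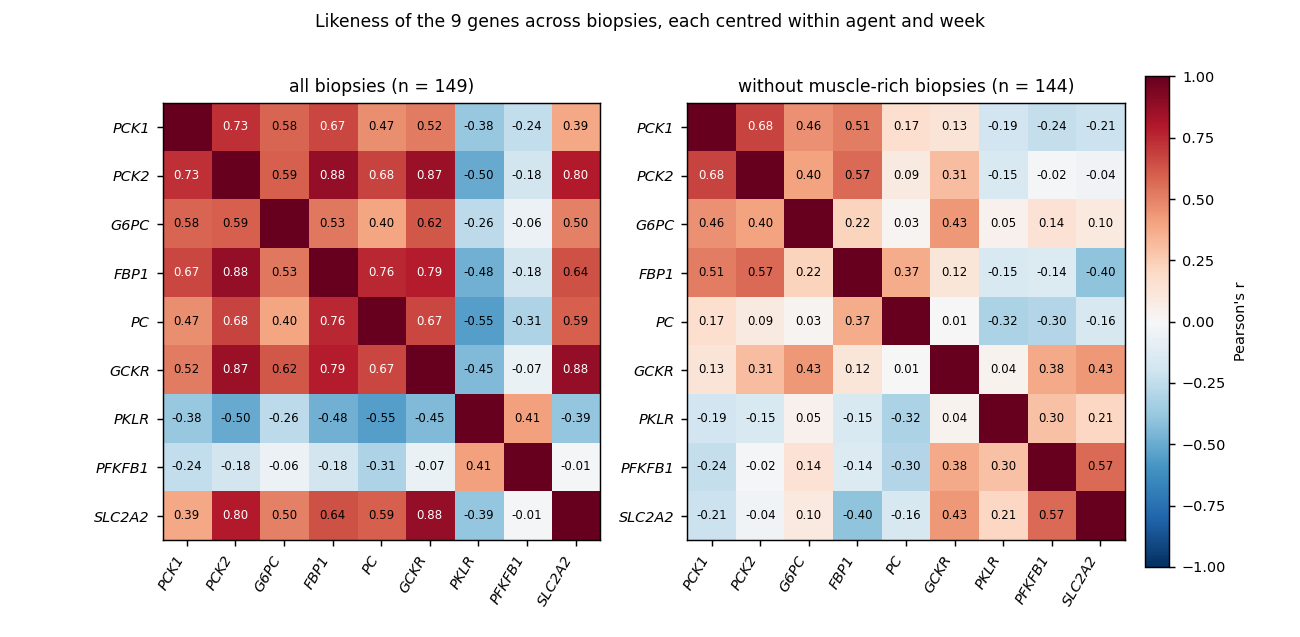
Pearson's r between each pair of members across biopsies, each value centred on its group and week, with all 149 biopsies on the left and with the 144 that were not muscle-rich on the right. The block of high values among PCK2, FBP1, GCKR and SLC2A2 on the left is not present on the right, where PCK1 and PCK2 (0.68), PCK2 and FBP1 (0.57) and PFKFB1 and SLC2A2 (0.57) are the highest pairs.

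Likeness between members was taken across biopsies centred on their group and week. These correlations are descriptions over biopsies that share animals, lanes and depth. Over the 144 biopsies that were not muscle-rich, PCK1 and PCK2 had a Pearson's r of 0.68, PCK2 and FBP1 of 0.57 and PCK1 and FBP1 of 0.51, whereas PFKFB1 and SLC2A2 had 0.57 and FBP1 and SLC2A2 -0.40. With all 149 biopsies GCKR and SLC2A2 reached 0.88, against 0.43 over the 144, and PCK2 and FBP1 0.88, so that leaving out the 5 muscle-rich biopsies lowered both.

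Over all 149 biopsies the genes most like each member were PCK2, KIFC3 and FBP1 for PCK1 (r of 0.73, 0.68 and 0.67) and XBP1, SMOC1 and EFNA1 for G6PC (0.67, 0.66 and 0.65). For PC they included P4HB and PLG (0.80 and 0.79), and for PKLR they were GPI, TP53INP2 and FAM161A (0.69, 0.66 and 0.66). PFKFB1 was closest to its overlapping neighbour TRO (0.92, and 0.98 over the 144), then to C9orf41 (0.66) and CTAGE5 (0.65). PCK2 (AMBP, ITIH1 and PROC, 0.94, 0.93 and 0.93), FBP1 (APOA1, SLC25A47 and APOC2, 0.90, 0.90 and 0.88), GCKR (HNF4A, KNG1 and AKR1C1, 0.94, 0.93 and 0.92) and SLC2A2 (LOC100505508, SORD and APOB, 0.95, 0.94 and 0.93) had neighbours of higher r, with the muscle-rich biopsies included. Over the 144 biopsies the closest to these 4 were PCK1 (0.68), APOA5 (0.68), DHRS3 (0.68) and again LOC100505508 (0.80). Of the genes named for the other members, only PCK2 (for PCK1), EFNA1 (for G6PC) and TRO (for PFKFB1) were still among the 3 closest. The highest r over the 144 was 0.57 for G6PC, 0.56 for PKLR and 0.55 for PC, each with a gene not named here.

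The other genes of the pathway were taken from lists of 77 genes, of which 50 were called at no week of treatment. Of the 15 enzymes that glycolysis and gluconeogenesis share, none was called higher at any week of treatment. Of 12 other glycolysis enzymes 2 were higher at week 0, 2 at week 11 and 2 at week 15, and of 14 other gluconeogenesis enzymes and transporters 3 were lower at each of weeks 7 and 11. Of 10 glycogen genes none was higher at any week, and 3, 0, 5, 2 and 3 were lower at weeks 0, 3, 7, 11 and 15. None of the 4 genes of fructose entry was called. Of 22 hormonal and transcriptional regulators 3, 2, 4, 3 and 3 were higher and 3, 0, 2, 1 and 2 lower at those weeks. Of all genes 10.3%, 11.4%, 12.6% and 13.4% were called higher at weeks 0, 7, 11 and 15. Called lower at the same weeks were 8.15%, 10.1%, 7.98% and 8.83%, and at week 3 10.8% were called in either direction. Whether these lists were called more or less often than genes at large was not tested.

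**Figure D5:**
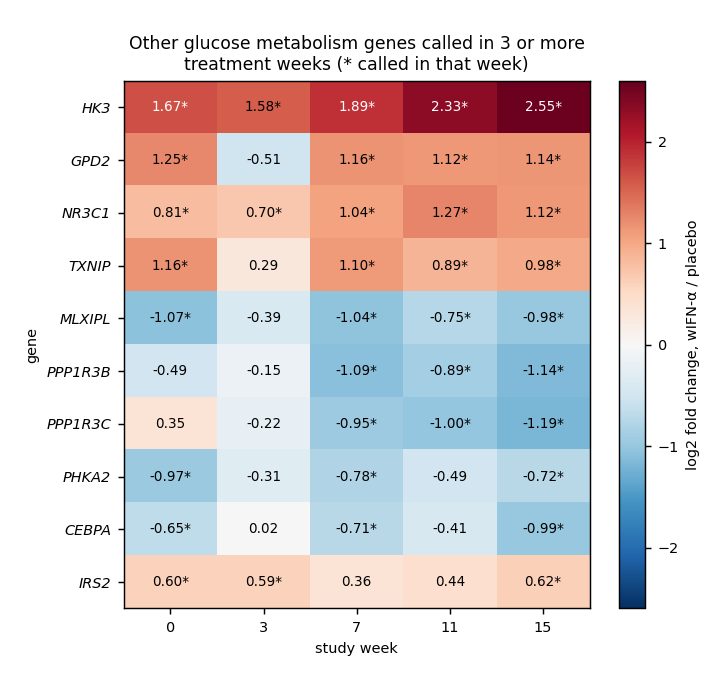
Log2 fold change of wIFN-α against placebo at the 5 weeks of treatment for the 10 other pathway genes called in the same direction at 3 or more of these weeks, with red for higher, blue for lower and an asterisk where the gene was called. HK3 is highest, from 1.58 at week 3 to 2.55 at week 15, and MLXIPL, PPP1R3B and PPP1R3C reach about -1.

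Of these genes 10 were called in the same direction at 3 or more weeks. The share of all genes that meet this rule was not counted. HK3, a hexokinase of myeloid cells, was called higher at all 5 weeks, with 13.4, 20.1 and 28.6 CPM (lowest, median, highest) in treated and 1.16, 2.95 and 6.86 CPM in placebo animals at week 15. The groups did not overlap there, and the log2 fold change was 2.55 (SE 0.28, adjusted p = 8.49e-07). How many of all genes had groups without overlap was not counted, for HK3 or for the genes below. The summed myeloid markers had medians of 738.3 and 550.1 CPM in those groups, and their part in the HK3 level was not tested. GPD2, the mitochondrial glycerol-3-phosphate dehydrogenase, was called higher at 4 weeks, with 1.14 (SE 0.24) at week 15 and, at week 3, -0.51 with and 0.72 without the muscle-rich biopsies, neither called.

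Regulators of hormone and glucose response were called in both directions. NR3C1, the glucocorticoid receptor through which cortisol raises gluconeogenic transcription, was higher at all 5 weeks, from 0.70 (SE 0.16) at week 3 to 1.27 (SE 0.11) at week 11. At week 11 it lay between 60.7 and 84.3 CPM in treated and between 20.9 and 38.9 CPM in placebo animals, with no overlap. TXNIP, a glucose-responsive inhibitor of glucose uptake, was higher at 4 weeks, with 1.16 (SE 0.25) at week 0, and IRS2, an adaptor of the insulin receptor, at 3 weeks, with 0.62 (SE 0.14) at week 15. MLXIPL (ChREBP), the glucose-sensing factor for which PKLR is a known target, was lower at 4 weeks. It was at 39.6, 97.7 and 141.8 CPM in treated and at 144.0, 192.1 and 223.7 CPM in placebo animals at week 15, without overlap, with a log2 fold change of -0.98 (SE 0.18, adjusted p = 0.000316). At week 0 it was -1.07 (SE 0.17), and at week 3 -0.39 (adjusted p = 0.245).

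CEBPA, a factor of hepatocyte metabolic genes that include PCK1, was called lower at weeks 0, 7 and 15, with -0.99 (SE 0.25, adjusted p = 0.00448) at week 15, and without the muscle-rich biopsy its week 0 value was -0.57 (adjusted p = 0.00624), under the fold. The remaining 3 belong to glycogen. PPP1R3B and PPP1R3C, subunits that bring protein phosphatase 1 to glycogen and favour its synthesis, were called lower at each of the 3 high dose weeks, with -1.14 (SE 0.28, adjusted p = 0.00320) and -1.19 (SE 0.32, adjusted p = 0.00602) at week 15. At week 15 PPP1R3C lay between 18.0 and 140.7 CPM in treated and between 83.9 and 290.8 CPM in placebo animals, which overlapped. PHKA2, a regulatory subunit of liver phosphorylase kinase, was lower at weeks 0, 7 and 15, with -0.72 (SE 0.17, adjusted p = 0.00286) at week 15.

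In the placebo time course the same lists moved in part as well. From weeks 0 and 3 to weeks 7 to 15, 5 of the 15 shared enzymes were called lower and 1 higher. Of the 12 other glycolysis enzymes 5 were lower and 1 higher, with 7 of 20 skeletal muscle genes lower over the same span. Of all 15984 genes tested 1301 were called lower and 808 higher. Of 10 glycogen genes 2 were called higher and none lower. From week -3 to weeks 0 and 3, 3 of the 4 genes of fructose entry were called higher, with a median log2 change of 0.98. Of the 14 other gluconeogenesis genes 2 were called lower. Over that step 446 of 15984 genes were called higher and 685 lower.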

How the data were processed

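The authors made poly(A) libraries with a TruSeq RNA kit, aligned the read pairs (50 bases each) to an assembled woodchuck transcriptome by Bowtie2, preferring unique concordant hits, and obtained counts through SAMtools (versions and the counter's settings are not given in the sources used here). The deposited values are expected counts per gene and run without normalization, of which 118 of 3368023 entries are fractions. RPKM values, deposited beside them, were used here only to compare levels between genes. The entry for the virus was dropped from library sizes and tests. The sample labels count weeks from 1, and the study's weeks (1 lower from the start of treatment) are used.

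Summing the 203 runs gave 164 biopsies, whose sums were then rounded, and the 37 biopsies in use with several runs had members that differed between runs by a median of 0.04 on the log2 scale. M1008 at week 15 was the exception, with FBP1, PFKFB1 and SLC2A2 differing by 0.40, 0.39 and 0.35. The 7 biopsies of M1004, which the study set apart because the animal may have been clearing the virus, and 8 of other weeks were left out, so that 149 remained.

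The summed counts went into edgeR 4.0.16 under R 4.3.3 (TMM normalization, filterByExpr, quasi-likelihood test, Benjamini-Hochberg adjustment over all genes tested, SE from the F statistic), with 1 fit per week. Differences between effects and the placebo time course were tested in 1 fit each, where the differences between effects and the omnibus time test were called on the adjusted p alone and the steps between phases also on the fold. The test was checked on simulated data. Alternatives were DESeq2 1.42.0, limma-voom (limma 3.58.1), M1004 included, sex or lane as a covariate, only the deepest run, a fold change above 2, size factors by RLE, all genes unfiltered, the animal as a block, every week in 1 fit, animals left out in turn, and, chosen after seeing the data, the placebo time course without F1016 at week -3. Levels and correlations used Python 3.11.15 with numpy 2.4.6 and pandas 2.3.3, and figures matplotlib 3.10.9. Correlations used log2(CPM + 1). The spread between animals is a variance component of log2 CPM centred by week.

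Animals carry 1 number over all weeks in the labels, so the numbers pair biopsies of 1 animal. Once group means were removed, 450 such pairs correlated at a median of 0.286 over 16232 genes, and 5068 pairs of different animals at -0.029. The text names all 9 members, the other pathway genes called in the same direction at 3 or more of the 5 treatment weeks, and the 3 genes most like each member over all biopsies with a mean of at least 5 CPM. The closest genes without the muscle-rich biopsies were named after their values were seen. Some genes that these rules would name are not reported here. Members and lists were chosen with earlier results of these data known. Sequences were not used here. Response groups are not in the labels and were not compared. In each weekly test every biopsy is another animal.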

Additional observations from a re-analysis of the deposited data

Results flagged for a closer look

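In 90 groups of 4 to 10 biopsies of 1 member, 8 had an animal whose distance to the next value exceeded Dixon's critical value for the group's size, where chance alone gives about 1 in 20. For FBP1, M1007 (wIFN-α, week 3) had 478.9 CPM with the next at 286.0, M1008 (placebo, week 19) had 444.5 CPM with the next at 206.6, and F1019 (placebo, week 23) had 598.9 CPM with the next at 355.1. For PC, M1007 at week 3 was again the highest at 393.5 CPM with the next at 255.7, and F1019 (placebo, week 15) was the lowest at 166.1 CPM with the next at 213.3. G6PC in F1015 (placebo, week 11) was at 702.1 CPM with the next at 530.3, GCKR in M1001 (placebo, week 15) at 268.7 CPM with the next at 213.8, and PCK1 in F1018 (wIFN-α, week 19) at 560.0 CPM with the next at 299.3.

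Among the biopsies left out of the comparisons, those of wIFN-α animals F1020 and F1023 labelled as taken when the animal died had PCK2 at 1145 and 1081 CPM, above the highest placebo value of 840.0 CPM, and that of F1020 had G6PC at 933.4 CPM, above the highest placebo value of 906.4 CPM.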

How the results depend on the processing

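The count of members called by edgeR (2, 0, 0, 1, 2 and 0 at weeks 0, 3, 7, 11, 15 and 19) depended on the setting, and the cause was not tested. At week 0 a fold change above 2 left 0 and 1 fit of all weeks 1, and leaving out single animals gave 1 to 3. At week 3 DESeq2, M1004 included, the deepest run, 1 fit of all weeks, the lane and sex each gave 1 and limma-voom 2, with 0 to 1 on leaving out animals. At week 7 DESeq2, M1004 included, limma-voom and the lane each gave 1, with 0 to 2 on leaving out animals. At week 11 the lane gave 0. At week 15 M1004 included gave 1, a fold above 2 and 1 fit of all weeks 0, and leaving out animals 0 to 2, with 0 without F1020. At week 19 DESeq2 gave 1. In the placebo time course 4 members differed between weeks and 4 to 6 on leaving out animals, the step to weeks 0 and 3 had 2 members and 1 to 2 on leaving out animals, and the step to weeks 7 to 15 had 1 member, 2 without the muscle-rich biopsies and 1 to 2 on leaving out animals. With M1004 included PKLR at week 15 was -0.58, under the fold.

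With the animal as a replicate block, the genes called for the difference between doses rose from 367 to 986 and for that between weeks 0 and 3 fell from 389 to 237, with no member among them, and the former was 657 without the muscle-rich biopsies. Without F1016 at week -3 the genes called for the placebo step to weeks 0 and 3 rose from 1131 to 1852. In the placebo time course the replicate block changed no member's call. The weekly tests hold 1 biopsy per animal and have no pairs. Of single member values under all alternatives 2369 kept their call, 37 gained one, 15 lost one, and no called value changed sign, while 99 uncalled values did. The lowest count of a member in any biopsy used was 26 reads (SLC2A2 in F1018 at week -3, almost without hepatocyte reads). Small groups limit weeks 19 and 23 (5 to 9 animals).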

Other observations

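Other biopsies left out of the comparisons also lay beyond the range of the 149 used. PFKFB1, whose lowest value among those used was 28.9 CPM, was at 14.5 CPM in M1006 at label week 3, at 21.2 CPM in F1023 and at 23.8 CPM in F1020, both labelled as died. PCK1 in the biopsies labelled as died was at 3909 CPM in F1020, 3032 CPM in F1023, 1608 CPM in F1024 (placebo) and 516.0 CPM in M1007.

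M1004, the wIFN-α animal set apart by the study, had PCK1 at 2272 CPM before treatment and at 431.4, 371.2, 370.4, 166.2 and 530.3 CPM at weeks 0, 3, 7, 11 and 15. Its G6PC went from 429.4 CPM before treatment to 826.5, 478.3, 539.9, 487.1 and 556.9 CPM at those weeks, and was at 274.6 CPM at week 19. Its SLC2A2 was at 351.6 CPM before treatment and at 354.8 CPM at week 0.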
